A study of Rattus norvegicus with 4 samples.

Results

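The m6A peaks of the hypothalamic arcuate nucleus (ARC) that the authors annotated to the 5′ untranslated region (5′ UTR) of an mRNA are described here. Members were chosen by that annotation alone and by no measured value. There were 2476 of 33056 peaks at 5 weeks, 2409 of 29653 peaks at 3 weeks, and 751 of 12704 peaks in the authors' deposited table that compares the ages. Together these are 5636 of 75413 listed regions. MeRIP-seq pulls fragmented poly(A) RNA down with an anti-m6A antibody, and a peak is a stretch where the pulled-down RNA (IP) exceeds the input RNA. The RNA came from female Sprague-Dawley rats of 5 weeks, an early pubertal age (libraries labelled ARC_352), and of 3 weeks, a prepubertal age (libraries labelled ARC_212). The ARC tissue of 3 rats was pooled per age, and each pool gave 1 IP and 1 input library, 4 libraries in all. The rats carried no transgene or treatment that the labels or methods name, and all were of 1 sex and strain. With 1 pool per age no spread between animals was measured and no test was possible. Enrichment of IP over input is given on the log2 scale throughout. All intervals below are 95% intervals over peaks or genes, and cover neither animals nor libraries.

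m6A is a methyl group on the N6 position of adenosine inside mRNA, placed by the METTL3 and METTL14 writer complex, removed by FTO and ALKBH5, and bound by YTH-domain readers. Most of it lies near stop codons and in 3′ UTRs, where it is known for its effect on mRNA decay, while m6A in 5′ UTRs has been tied to translation initiation that does not need the cap-binding complex. Antibodies against m6A also bind m6Am, a related mark on an adenosine that is the first transcribed base beside the cap, which PCIF1 writes, so the base at a transcript's start matters for a peak that begins there.

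To show what stands at such starts, the RefSeq sequence around the annotated start is printed for 6 genes that have a 5′ UTR peak at the gene start at both ages and that are described below. Each line runs from 10 bases before the first transcribed base, 5′ to 3′, for 30 bases in all, on build GRCr8, and the capital marks the first transcribed base.
Myt1l: tgtgggtacaGtgtaggaagcacacagcac
Cpeb4: aaaataataaAtgggggattacgggtttgg
Shc3: acggaggggcAtgcttccacgcaccaagta
Gja1: aaacgcttttAcgaggtatcagcacttttc
Eif5b: tgtgccctgtCccagtgcgcgggtctgtgg
Ythdf1: tgttccggccTgcgtgcctacagctgccgc
The windows are chr6:51899072-51899101 (plus strand), chr10:16283569-16283598 (minus), chr17:13803970-13803999 (plus), chr20:36302554-36302583 (plus), chr9:47718696-47718725 (plus) and chr3:188417721-188417750 (minus), in the order of the lines. RefSeq places an A at the start of Cpeb4, Shc3 and Gja1, and a G, C or T at the start of Myt1l, Eif5b and Ythdf1. These 6 genes were picked by no rule from a larger number with such a peak. How many of them start with an A is therefore no measure of how common A starts are. RefSeq windows were matched by Ensembl ID, or else by symbol, for 1836 of the 2372 genes with a 5′ UTR peak at either age, which is 77.4%. This is under the 80% that a comparison of start bases between gene sets was to have, so that comparison is void and no share is given. The peak tables follow another build than GRCr8, and whether a RefSeq start is the start of the transcript the authors used was not tested.

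5′ UTR peaks made up 7.49% (7.21 to 7.78) of all peaks at 5 weeks and 8.12% (7.82 to 8.44) at 3 weeks. They lay in 1773 of the 14036 genes with a peak at 5 weeks (12.6%) and in 1779 of 13485 at 3 weeks (13.2%). Of the 2372 genes with a 5′ UTR peak at either age, 1180 (49.7%, 47.7 to 51.8) had one at both, 593 at 5 weeks alone and 599 at 3 weeks alone. At the age without a 5′ UTR peak, 56 of the 593 and 25 of the 599 had no peak of any kind. Genes with a 5′ UTR peak at only 1 age thus mostly had a peak of another region at the other age.

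Most of these genes had a single 5′ UTR peak, 1371 of 1773 (77.3%) at 5 weeks and 1383 of 1779 (77.7%) at 3 weeks, whereas 72 and 58 had 4 or more. Pcdhga5, which stands for the clustered gamma protocadherins that give neurons their surface identity, had 18 5′ UTR peaks at 5 weeks and 12 at 3 weeks. Aak1, a kinase of clathrin-coated vesicles, had 8 and 9, and Macf1, which links microtubules to actin, had 8 and 4. Tspoap1, a scaffold of the presynaptic active zone, also had 8 and 4. Pcdha5 of the alpha protocadherins had 4 at 5 weeks and 6 at 3 weeks, and Rnf146, a ubiquitin ligase, had 1 and 6. Since transcripts of the protocadherin clusters share exons and the authors' assignment of reads among them is not given, peaks within Pcdhga5 and Pcdha5 are of uncertain origin.

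A 5′ UTR peak seldom stood alone on its gene. At 5 weeks 147 of 1773 genes (8.29%) had 5′ UTR peaks and no others, and at 3 weeks 174 of 1779 (9.78%). A stop codon peak was present in 56.9% (54.6 to 59.2) of the genes with a 5′ UTR peak at 5 weeks, against 57.4% (56.5 to 58.3) of protein-coding genes with peaks but none in the 5′ UTR, and the 3-week shares were 58.0% and 57.3%. These shares do not have a like base. Every gene without a 5′ UTR peak has a peak in another region by definition, while the 147 and 174 genes above have none. Whether genes with and without a 5′ UTR peak differ in this respect can therefore not be told from these shares. A start codon peak was listed beside a 5′ UTR peak in 298 of 1773 genes (16.8%) at 5 weeks, against 2269 of 11364 genes without a 5′ UTR peak. At 3 weeks the counts were 305 of 1779 (17.1%) against 2191 of 10846 (20.2%). The unlike base lowers the shares of genes with a 5′ UTR peak here too, so no deficit is read from them. A wide peak takes 1 label only, and a peak that reaches from the 5′ UTR over the start codon may be listed under either.

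The label 5′ UTR did not mean the first bases of the gene. The distance from the listed start of the gene to the 5′ edge of the peak, counted along the genome with introns, had a median of 911.5 bases at 5 weeks and 627 bases at 3 weeks. The edge lay between 25 bases before and 100 bases after the gene start in 578 of 2476 peaks (23.3%, 21.7 to 25.1) at 5 weeks and 637 of 2409 (26.4%, 24.7 to 28.2) at 3 weeks. It lay more than 10 kb inside the gene in 554 (22.4%) and 503 (20.9%), and more than 25 bases before it in 28 and 27. A gene with several alternative first exons can hold a 5′ UTR far inside its listed bounds, and the tables give the bounds of the gene only.

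**Figure D1:**
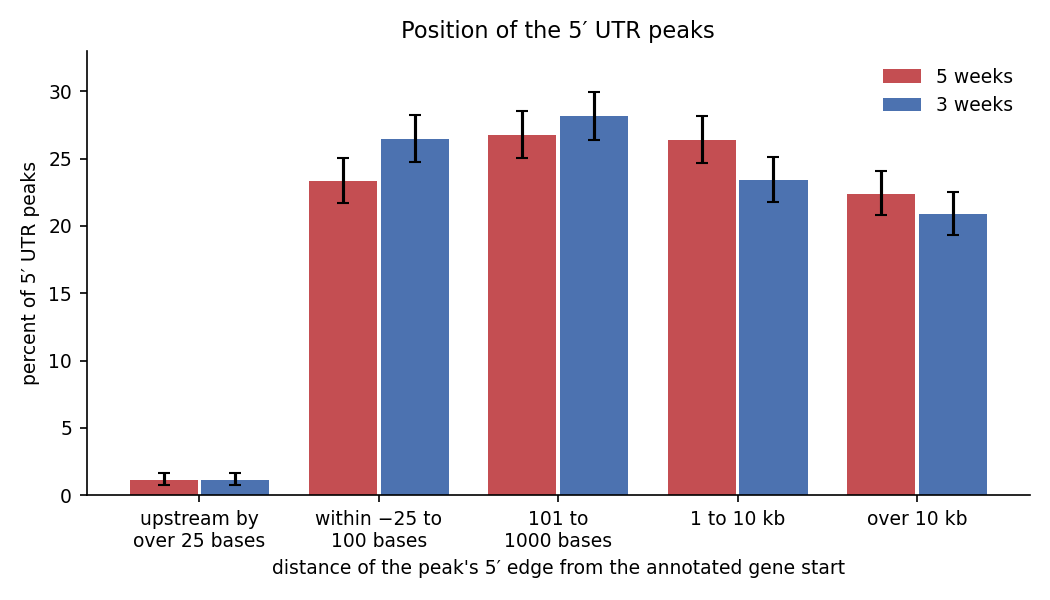
Percent of 5′ UTR peaks (y axis) in 5 classes of distance between the annotated gene start and the 5′ edge of the peak (x axis), at 5 weeks (red, 2476 peaks) and 3 weeks (blue, 2409 peaks), with 95% Wilson intervals as error bars. About 1 in 4 peaks begin at the gene start, 23.3% and 26.4%, and 22.4% and 20.9% lie more than 10 kb inside the gene.

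Camta1, a calmodulin-binding transcription activator, shows both positions. Its peak at the gene start had 3.85 at 5 weeks and 3.32 at 3 weeks. The 5-week list held a further pair deep inside the gene, at 3.69 and 2.24. The comparison table held one 754285 bases inside, at chr5:161586517-161602438, with 3.38 at 5 weeks and 5.13 at 3 weeks. The peak at the gene start was thus a little higher at 5 weeks and the inner one lower.

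Some labels were doubtful. On the same strand, 149 of the 5′ UTR peaks at 5 weeks (6.02%) and 139 at 3 weeks (5.77%) overlapped a further gene of the tables. Among the peaks with the smallest p were one labelled C14h4orf50 that began upstream of that gene and overlapped Jakmip1, and one labelled Slc25a2 that overlapped Taf7. One labelled C14h1orf146 also began upstream of its gene and overlapped Btbd8. The peak labelled Zfp622 in the comparison table lay 135101 bases inside its listed gene, and the Ptprg peak described below 589285 bases inside. For these, the gene that made the RNA cannot be told apart from its neighbour, or the promoter is not the one at the gene's listed start.

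The spans were short by the median, 450 bases at 5 weeks and 490 at 3 weeks with introns included, whereas start codon peaks spanned 8145 and 7114 bases and often join exons across a first intron. Still, 36.1% and 38.2% of the 5′ UTR peaks spanned more than 1000 bases of genome.

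5′ UTR peaks were of middling strength. The median over 5′ UTR peaks was 2.79 (2.75 to 2.84), or 6.93-fold, at 5 weeks. At 3 weeks it was 3.09 (3.02 to 3.15), or 8.53-fold. The corresponding medians over all peaks were 2.81 and 3.17, over start codon peaks 2.96 and 3.33, and over stop codon peaks 3.54 and 4.11. The interquartile range of the 5′ UTR peaks was 2.28 to 3.72 at 5 weeks and 2.48 to 4.09 at 3 weeks, so that single peaks differed far more than the medians of the ages. Evidence for a single peak was weaker than over all peaks. The median of the authors' p-values was 1.04e-08 (5 weeks) and 1.01e-08 (3 weeks), where all peaks gave 2.98e-18 and 1.22e-20. Non-coding exon peaks stood near the 5′ UTR peaks at 5 weeks, with 8.11e-09, and had 2.97e-10 at 3 weeks.

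**Figure D2:**
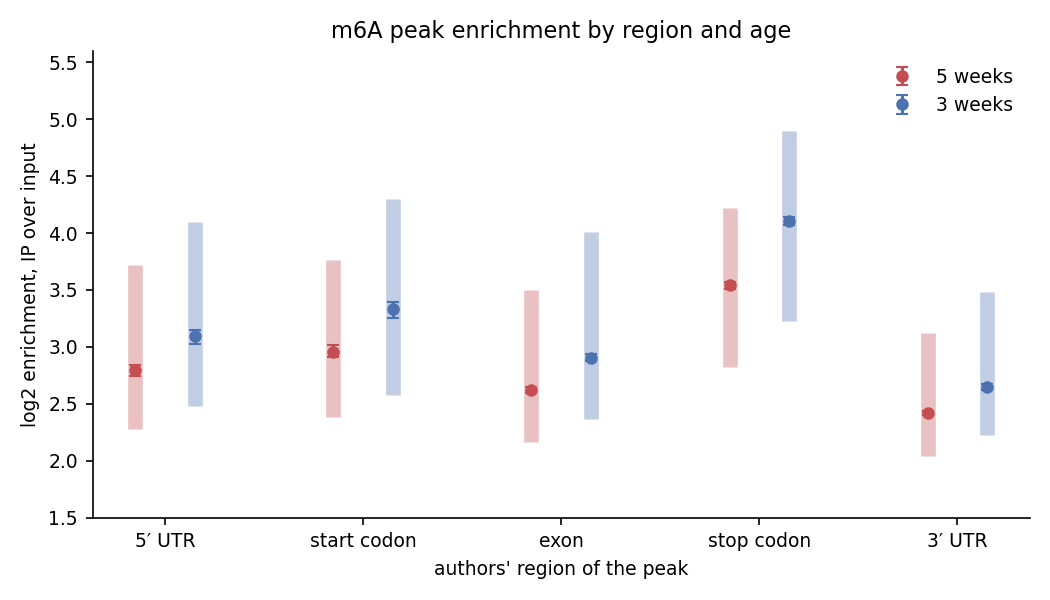
Log2 enrichment of IP over input (y axis) by the authors' region of the peak (x axis) at 5 weeks (red) and 3 weeks (blue); points are medians with 95% order-statistic intervals over peaks, and shaded bars are interquartile ranges. The 5′ UTR medians of 2.79 and 3.09 lie below those of start codon and stop codon peaks, and the 5-week median is the lower one in each region drawn.

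Enrichment was somewhat higher nearer the start. Peaks that began at the gene start had medians of 2.96 at 5 weeks and 3.30 at 3 weeks. Those more than 10 kb inside the gene had 2.59 and 2.87. Within a gene that had both, the 5′ UTR peak with the smallest p was weaker than the stop codon or 3′ UTR peak with the smallest p. The median difference of 5′ UTR minus the later peak was -0.25 (-0.34 to -0.17) over 1443 genes at 5 weeks and -0.41 (-0.52 to -0.32) over 1442 genes at 3 weeks. The 5′ UTR peak was nevertheless the higher one in 609 genes at 5 weeks and in 554 at 3 weeks.

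The p was listed as 0 for 44 of the 5′ UTR peaks at 5 weeks and 50 at 3 weeks, and the most enriched of these are named here. Myt1l, a zinc finger factor that keeps neurons from expressing other fates, led at both ages, reaching 6.27 at 5 weeks and 7.06 at 3 weeks in a peak that began at the gene start (chr6:46428150-46485601 at 5 weeks). Chd6, a chromatin remodeller, had 5.66 and 6.35. Cpeb4, which binds cytoplasmic polyadenylation elements and controls translation of neuronal mRNAs, had 5.25 at 5 weeks and 5.20 at 3 weeks. Myt1l and Chd6 were thus lower at 5 weeks, and Cpeb4 stood at nearly the same level in the separate lists.

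The other leading 5-week peaks were those labelled C14h4orf50 at 5.91, Slc25a2 at 5.71 and Prp2l1 at 5.06. The other leading 3-week peaks were those of Ptprg, a receptor tyrosine phosphatase of the developing nervous system, at 6.51, and of Fbxw7, which brings proteins to ubiquitin ligases, at 6.45. Pcdh7, a protocadherin, had 5.87 and Tor1aip2, an activator of torsin ATPases, 5.82. The enrichment itself went higher than in these, up to 11.41 at 5 weeks and 11.96 at 3 weeks, where the p was larger.

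Fewer 5′ UTR peaks than peaks in general had a counterpart at the other age. Of the 5-week 5′ UTR peaks, 1667 of 2476 (67.3%, 65.5 to 69.1) shared at least 1 base on the same strand with a 3-week peak, against 74.5% over all peaks and 65.7% over exon peaks. Of the 3-week 5′ UTR peaks, 1650 of 2409 (68.5%, 66.6 to 70.3) did so with a 5-week peak, against 83.1%. The share over stop codon peaks was 92.6% at 5 weeks and 95.9% at 3 weeks. Spans include introns, so an overlap need not be one of exons.

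The counterpart mostly bore the same label, 5′ UTR for 1395 of the 1667 (83.7%) and 1399 of the 1650 (84.8%), and start codon for 181 and 163. It lay in the same gene for 98.6% and 98.5%. Peaks that lacked a counterpart had lower medians, 2.40 (5 weeks) and 2.82 (3 weeks), while those that had one reached 3.02 and 3.26.

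Between overlapping peaks of the separate lists, enrichment was lower at 5 weeks. The median log2 difference of 5 weeks minus 3 weeks was -0.32 (-0.36 to -0.28) over 1667 5′ UTR peaks with a counterpart. It was -0.36 (-0.37 to -0.35) over all 24632 such peaks, and -0.49 (-0.52 to -0.47) over stop codon peaks. At least 2-fold weaker were 391 of the 1667 and at least 2-fold stronger 148, against 4715 and 1190 of the 24632. By the median the 5′ UTR peaks shifted about as much as peaks in general. Their differences were more spread, with an interquartile range of -0.94 to 0.22 against -0.84 to 0.09, and changes of at least 2-fold were more frequent in both directions.

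The comparison table gave a larger figure. Every row of it has a p for the difference under 0.05 as deposited, and the medians of its 5′ UTR peaks were 2.67 at 5 weeks and 3.80 at 3 weeks. The median log2 fold change of 5 weeks over 3 weeks was -1.29 (-1.41 to -1.17), a ratio of 0.408, against -0.95 over all 12704 peaks. Of the 751 peaks, 461 (61.4%, 57.9 to 64.8) were weaker at 5 weeks by at least 2-fold, where 46.9% of all peaks in the table were. Another 138 (18.4%, 15.8 to 21.3) were stronger by at least 2-fold, where 10.6% of all peaks were. The remaining peaks lay under 2-fold, 126 lower and 26 higher at 5 weeks. Both shares exceeded those of all peaks in the table, and the median absolute log2 fold change was 1.81 for 5′ UTR peaks against 1.10. This was not particular to the 5′ UTR. Non-coding exon peaks had a median of -1.12 (-1.29 to -1.03), with 55.5% weaker, 18.3% stronger and a median absolute change of 1.65. Among exon peaks 17.0% were stronger. After subtracting the median over the whole table, -0.95, the counts were 261 weaker and 164 stronger. Centred counts were not made over all peaks, so these give no contrast with peaks in general.

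**Figure D3:**
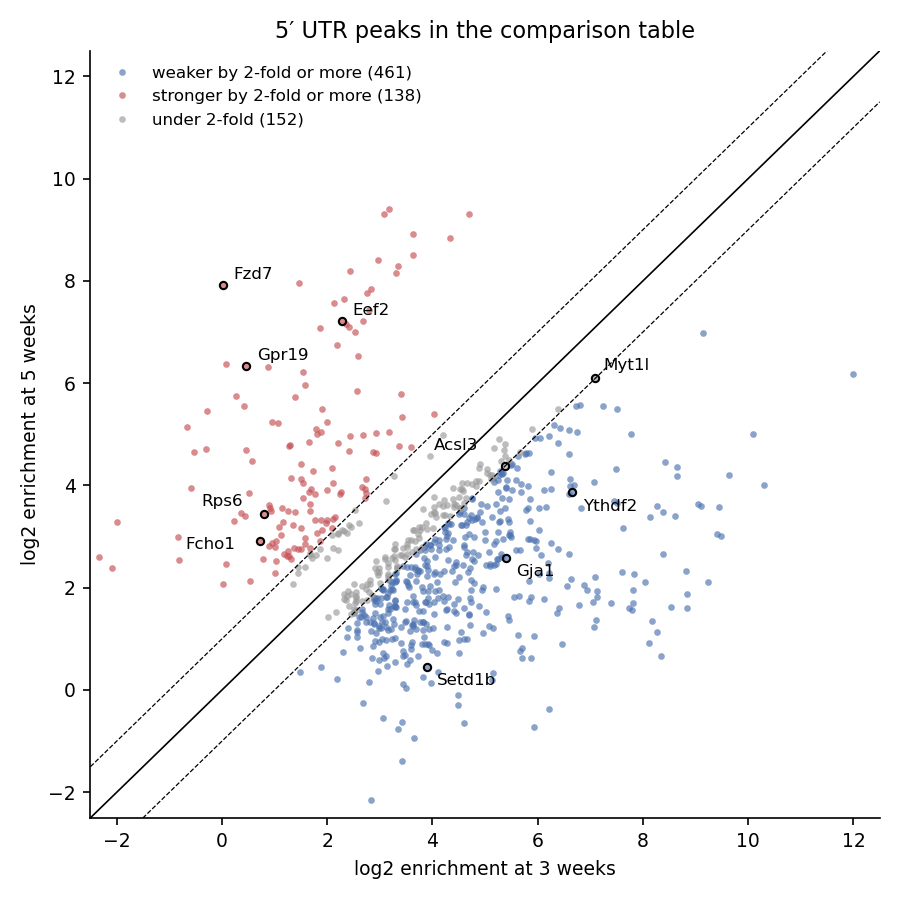
Log2 enrichment at 5 weeks (y axis) against 3 weeks (x axis) for the 751 5′ UTR peaks of the comparison table, each point a peak; the solid line marks equal enrichment, the dashed lines a 2-fold difference, and circles mark the leading peak of named genes. Of these, 461 lie at or below the lower dashed line and 138 at or above the upper one, and the strip along the line of equality is nearly empty in a table limited to p under 0.05.

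The median of the authors' p-values in the table was 0.0062 for 5′ UTR peaks and 0.00107 for all peaks. Among peaks with p under 1e-06, the median was -1.15 (-1.30 to -1.10) over 72 5′ UTR peaks and -1.10 over all 3148. Between 0.001 and 0.01 it was -1.75 (-2.01 to -1.31) over 205 5′ UTR peaks and -0.86 over all 2813. Between 0.01 and 0.05, which holds 317 of the 751, it was -1.10 (-1.30 to -0.88), and -0.69 over all 3591. The 5′ UTR medians thus did not follow one order over p. In each band given, the median of all peaks lay above the 5′ UTR interval. Under 1e-06 it did so only narrowly, and the 2 values are equal as rounded here. Of the 751 peaks, 505 overlapped a listed peak at both ages, 89 at 5 weeks only, 142 at 3 weeks only and 15 at neither. For the 505, the values of the separate lists gave a median of -0.79 (-0.88 to -0.71), against -0.68 over all 10659 comparison peaks listed at both ages.

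Direction went with the 3-week level. In the lowest sixth of the table by 3-week enrichment, with bounds set over all peaks, 109 of 160 5′ UTR peaks were at least 2-fold stronger at 5 weeks and 11 weaker. In the highest sixth, 0 of 161 were stronger and 150 weaker. The same order held over all peaks, with 51.9% stronger in the lowest sixth and 79.1% weaker in the highest. Since the 3-week value enters both quantities, the order of the sixths is a description. Position made little difference within 10 kb, with medians of -1.41 at the gene start, -1.44 up to 1 kb and -1.49 from 1 to 10 kb. More than 10 kb inside the gene the median was -0.94 (-1.10 to -0.71).

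**Figure D4:**
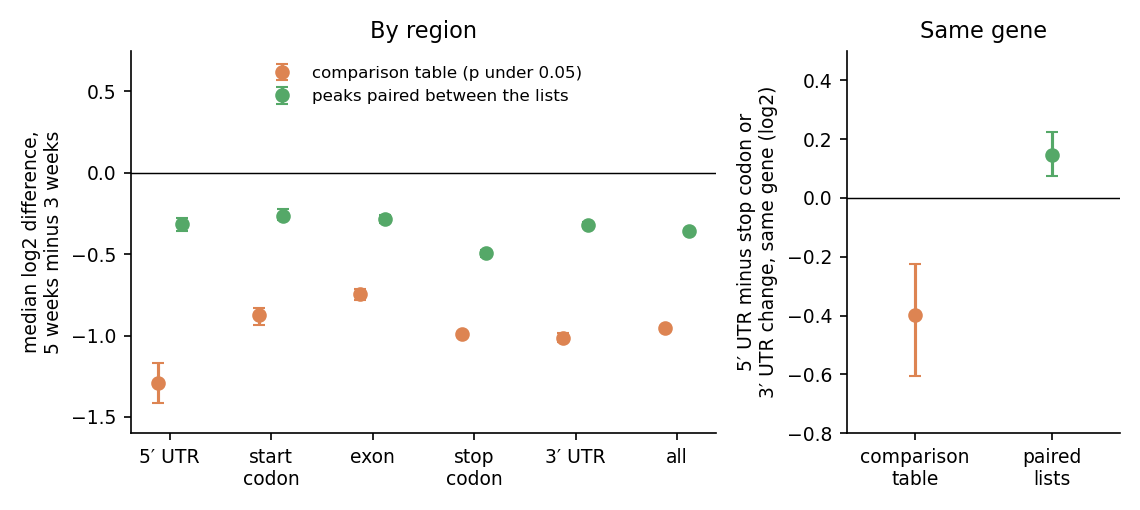
Left, median log2 difference of 5 weeks minus 3 weeks (y axis) by region (x axis), from the comparison table (orange) and from peaks paired between the separate lists (green), with 95% order-statistic intervals over peaks. Right, median over genes of the 5′ UTR change minus the stop codon or 3′ UTR change of the same gene, from the same 2 sources. Of the regions drawn, the 5′ UTR stands apart at -1.29 in the table and not at -0.32 in the paired lists. Non-coding exon peaks, not drawn, had -1.12 (-1.29 to -1.03) in the table, an interval that overlaps that of the 5′ UTR. The same-gene difference is -0.40 in one source and 0.14 in the other.

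The contrast with the 3′ end of the same gene depended on the source. In the comparison table, 374 genes had both a 5′ UTR peak and a stop codon or 3′ UTR peak, with median log2 fold changes of -1.30 and -0.997. The median difference was -0.40 (-0.60 to -0.23), with the 5′ UTR peak the more reduced in 236 genes. Over 1014 genes with both kinds paired between the separate lists, the medians were -0.29 and -0.50 and the difference was 0.14 (0.075 to 0.22), with the 5′ UTR peak the less reduced in 569 genes. For the 261 genes in both sets the comparison table gave -0.34 and the paired lists gave -0.035 (-0.15 to 0.053), so that no greater loss in the 5′ UTR than at the 3′ end was shown by both sources.

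Across the 374 genes the changes at the 2 ends had little relation, with a Pearson correlation of 0.053 and a Spearman correlation of 0.11 over genes that share the same 4 libraries. Both were at least 2-fold weaker in 121 genes. The 5′ UTR peak alone was weaker, with the later peak under 2-fold, in 106, and the later peak alone in 34. Only 6 genes had a weaker 5′ UTR peak with a stronger later peak and 29 the reverse.

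Fzd7, a Wnt receptor, had the widest contrast of the 6 opposite pairs named. Its 5′ UTR peak stood at 7.92 at 5 weeks and 0.015 at 3 weeks, which is a difference of 7.90, while its 3′ UTR peak had 4.12 and 9.65, a change of -5.53. Gpr19, an orphan receptor of the brain, had 6.34 at 5 weeks and 0.46 at 3 weeks in the 5′ UTR, against 4.85 and 6.90 at the stop codon. These 2 genes had a 5′ UTR peak close to input level at 3 weeks.

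Paqr8, a membrane progesterone receptor, had 4.79 at 5 weeks and 1.30 at 3 weeks in the 5′ UTR and a change of -1.22 at the stop codon. Tanc2, a scaffold of the postsynaptic density, had 3.31 and 0.23 in the 5′ UTR and a change of -1.21 at the stop codon. The reverse pattern was seen for Kcne2, an accessory subunit of potassium channels, whose 5′ UTR peak had 4.28 and 5.28 while its 3′ UTR peak was 2.23 higher on the log2 scale. Zmym3, a zinc finger protein of chromatin complexes, had 0.77 and 3.44 in the 5′ UTR and a change of 1.12 in the 3′ UTR. The values of single genes rest on 1 pool per age.

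Of the peaks weaker at 5 weeks, those with the smallest p were moderate in size. Acsl3, which activates long-chain fatty acids, had 4.37 at 5 weeks and 5.37 at 3 weeks, but this peak also overlapped LOC102551819 on the same strand and its 3-week counterpart is listed as stop codon. Apbb1, an adaptor of the amyloid precursor protein, had 4.10 and 5.41, where the separate lists gave 4.40 and 5.20. Celf4, an RNA-binding protein of excitatory neurons, had 3.42 and 4.74. With Camta1 (3.38 and 5.13), Myt1l (6.10 and 7.09) and the peak labelled Zfp622 (4.10 at 5 weeks), their log2 fold changes ran from -0.99 to -1.75. The peak labelled C14h1orf146 had 4.63 at 5 weeks and 5.78 at 3 weeks.

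Cpeb4 was a case where the tables differ. The comparison table gave 4.11 at 5 weeks and 5.25 at 3 weeks (log2 fold change -1.14), while the overlapping peaks of the separate lists had 5.25 and 5.20. The 3-week values lie close together and the 5-week values do not. The methods do not say how the 5-week value was set in the comparison.

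The peaks stronger at 5 weeks that had the smallest p were mostly modest in enrichment. Fcho1, which helps to start clathrin-coated pits, had 2.92 at 5 weeks and 0.72 at 3 weeks (log2 fold change 2.19). Its overlapping peaks in the separate lists had 2.86 and 2.32. Parp4, the ADP-ribosyltransferase of vault particles, had 2.81 and 0.89 in the comparison table, and the separate lists gave 2.98 and 2.03. In both genes the change was smaller in the separate lists.

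Tln2, a talin that links integrins to actin, had 4.17 at 5 weeks and 3.26 at 3 weeks. Fcer1g, the signalling chain of Fc receptors on microglia and other myeloid cells, had 2.80 and 1.01. The overlapping 5-week peak is listed as 3′ UTR, and none was listed at 3 weeks. Trim24, a transcriptional cofactor of the tripartite motif family, had 3.13 at 5 weeks and was 1.23 higher than at 3 weeks. Tifab, Rmi1 and Herc2, the last a large ubiquitin ligase, were 0.81, 0.85 and 0.85 higher on the log2 scale, under 2-fold each.

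The members were then followed through 18 gene lists. A 5′ UTR peak was present in 8 of the 23 m6A writers, erasers and readers with any peak at 5 weeks (34.8%) and in 6 of 21 at 3 weeks (28.6%), where all genes with a peak gave 12.6% and 13.2%. Lists were not matched for expression or for the number of peaks, and counts this small carry wide error. Ythdf2, a reader that brings m6A mRNAs to decay, had 6 5′ UTR peaks at 5 weeks, with 5.87 in the one of smallest p, and 4 at 3 weeks, with 6.49. Ythdf1, a reader tied to translation, had a peak at its gene start with 8.42 at 5 weeks and 5.15 at 3 weeks. Ythdc1, the nuclear reader, had 3.34 and 5.44 in the comparison table, a log2 fold change of -2.10.

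Ythdf2 led with -2.79 in that table, at 3.87 and 6.66, though the separate lists gave 5.87 and 6.49 for the overlapping peaks. Rbm15b, which guides the writer complex, had 4.20 and 5.10, but 4.51 and 4.66 in the separate lists, where the 3-week peak is labelled start codon. Alkbh5, an m6A eraser, had 4.23 at 5 weeks and 2.89 at 3 weeks in the separate lists, and Pcif1, the m6Am writer, 2.55 and 1.87. Both were thus higher at 5 weeks in the lists, and neither had a 5′ UTR peak in the comparison table. Of this list, 3 genes had a 5′ UTR peak there, with 2 at least 2-fold weaker and 0 stronger, where 61.9% and 18.9% of the 657 genes with such a peak were weaker and stronger.

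Among genes of translation, 7 of 42 factors with a peak had a 5′ UTR peak at 5 weeks and 10 of 39 at 3 weeks. Eif5b, which joins the ribosomal subunits, had a high value at its gene start, 9.06 at 5 weeks and 11.72 at 3 weeks. Denr, a reinitiation factor, had 4.31 and 4.18. Eif3m, a subunit of the initiation factor that itself binds m6A in 5′ UTRs, had 1.34 and 3.83 in the comparison table, and Eif4g2, a scaffold of cap-independent initiation, 1.78 and 2.31.

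Eef2, the elongation factor that moves the ribosome, had 7.22 at 5 weeks and 2.28 at 3 weeks in the comparison table, yet no overlapping peak was listed at 5 weeks. The authors' adjusted p for this difference was 0.076, above 0.05. It was also above 0.05 for Eif4g2 (0.10), and for Irs2 (0.12), Hnrnpf (0.091) and Dio2 (0.090), which are described below. Of ribosomal protein genes with a peak, 5 of 58 (8.62%) had one at 5 weeks and 5 of 44 (11.4%) at 3 weeks, against 12.6% and 13.2% of all genes. Rps6, the ribosomal protein that S6 kinase phosphorylates, had 3.43 at 5 weeks and 0.80 at 3 weeks (log2 fold change 2.63), and no overlapping peak was listed at 3 weeks.

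The study is about BDNF, PI3K/Akt signalling and GnRH in the onset of puberty, so 5′ UTR peaks of genes from those pathways are given here. Bdnf, the neurotrophin, had a 5′ UTR peak at 5 weeks, at chr3:96165492-96165666 (log2 3.60), and none at 3 weeks. Gnrh1, the releasing hormone of the reproductive axis, likewise had one at 5 weeks with 3.21 and none at 3 weeks, and that peak (chr15:41942514-41952171) also overlapped Kctd9 on the same strand. Akt1, the kinase, had one at its gene start at both ages with 2.32 at 5 weeks and 2.85 at 3 weeks. None of the 3 had a 5′ UTR peak in the comparison table. That table holds only rows with p under 0.05, so absence from it does not tell an unchanged peak from one not compared. The study itself reports reduced m6A of Bdnf mRNA in early puberty and places the methylation in an exon. Whether the 5′ UTR peak of Bdnf bears on that site was not tested. No 5′ UTR peak was listed for Fto, Akt2, Rps6kb1, Kiss1, Tac3, Pdyn or Ntrk2 at either age.

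Across the signalling list, 10 of 58 genes with a peak had a 5′ UTR peak at 5 weeks and 10 of 55 at 3 weeks. Shc3, the neuronal adaptor of Trk receptors, had a peak at its gene start with 4.50 at 5 weeks and 5.45 at 3 weeks in the comparison table (log2 fold change -0.95). Map2k1, the kinase MEK1, had 5.34 at 5 weeks and 5.13 at 3 weeks in the separate lists, and Grb2, an adaptor upstream of Ras, 2.70 and 4.17. Irs2, the insulin receptor substrate, had 1.02 and 3.30 in the comparison table. Of 28 and 22 genes of puberty and GnRH control with a peak, 3 and 2 had a 5′ UTR peak, which were Erbb4 and Nrg1 at both ages and Gnrh1 at 5 weeks. Of the arcuate neuron list 1 of 22 and 1 of 11 had one, which was Nhlh2, a transcription factor of GnRH and arcuate neurons, with 4.42 at 5 weeks and 3.82 at 3 weeks.

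Neuroactive receptors and ion channels had a 5′ UTR peak in 17 of 73 genes with a peak at 5 weeks (23.3%) and 14 of 73 at 3 weeks (19.2%). Chrm3, the M3 muscarinic receptor, had 5.13 at 5 weeks and 5.11 at 3 weeks, and Grin3a, an NMDA receptor subunit, 4.69 and 3.55. Grik5, a kainate receptor subunit, had 4.60 at 3 weeks in the comparison table and a log2 fold change of -3.00. In the separate lists it had 2.56 at 5 weeks and 3.56 at 3 weeks, the 3-week peak being labelled start codon, which is a smaller difference.

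**Figure D5:**
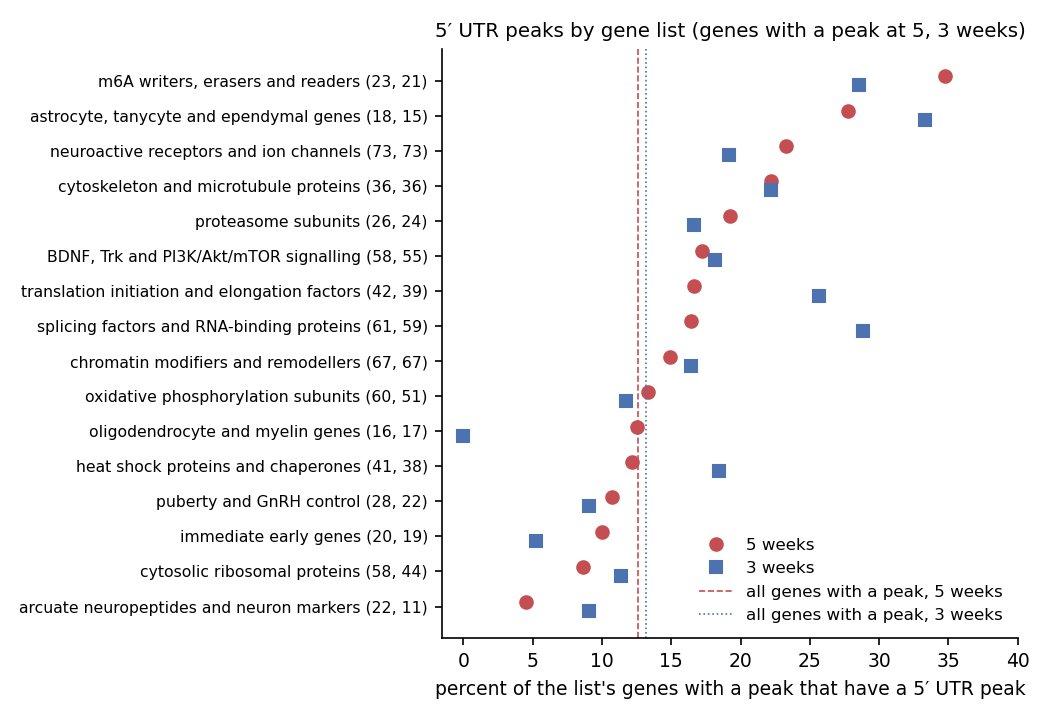
Percent of each list's genes with any peak that had a 5′ UTR peak (x axis) at 5 weeks (red circles) and 3 weeks (blue squares), for lists with at least 10 such genes (number at 5 and at 3 weeks in brackets); vertical lines mark all genes with a peak, 12.6% and 13.2%. The m6A genes stand highest at 5 weeks with 34.8%, and splicing factors lie at 16.4% and 28.8%.

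Few glial genes could be compared. Of the astrocyte, tanycyte and ependymal list, 5 of 18 genes with a peak at 5 weeks and 5 of 15 at 3 weeks had a 5′ UTR peak, and the 3 in the comparison table were at least 2-fold weaker there, where 61.9% of all genes with a 5′ UTR peak in it were. Gja1, the gap junction protein of astrocytes, had 2.59 at 5 weeks at its gene start, with a log2 fold change of -2.81 against 3 weeks, and 2.71 and 5.39 in the separate lists. Apoe, the lipid carrier, had 2.70 and 4.65. Dio2, which makes active thyroid hormone in tanycytes, had 2.14 and 3.30 in the table but 2.93 and 3.25 in the separate lists, a difference under 2-fold. Of oligodendrocyte genes with a peak, 2 of 16 had a 5′ UTR peak at 5 weeks, Mag and Olig2, at 2.10 and 2.85. At 3 weeks 0 of 17 had one. All genes with a peak gave 12.6% at 5 weeks and 13.2% at 3 weeks. Counts this small do not show a difference between the ages. In bulk tissue fewer cells of a type and less mRNA or methylation per cell cannot be told apart.

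Among cytoskeletal genes, Stmn3, a stathmin that destabilises microtubules, had 7 5′ UTR peaks at 5 weeks and 4 at 3 weeks, and its leading one had 2.10 and 4.79 in the comparison table. Tuba1a, the neuronal alpha tubulin, went the other way with 3.23 and 1.35, and Tubb2a and Tubb5, beta tubulins, had 3.16 and 4.01 and 1.65 and 2.41. Of 8 chromatin genes with a 5′ UTR peak in the table, 4 were at least 2-fold weaker and 2 stronger, against 61.9% and 18.9% of all genes with such a peak. Setd1b, a histone H3K4 methyltransferase, had 0.46 and 3.89, Smarca2, a catalytic subunit of the SWI/SNF remodeller, 4.81 and 5.38, and Ep300, an acetyltransferase, 2.93 and 3.53. Brd2, a reader of acetylated histones, was among the stronger ones with 3.82 at 5 weeks and 2.24 at 3 weeks.

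Splicing factors and RNA-binding proteins had 5′ UTR peaks in 10 of 61 genes with a peak at 5 weeks (16.4%) and in 17 of 59 at 3 weeks (28.8%). Srsf6, a serine and arginine rich splicing factor, had 2.55 at 5 weeks and 6.72 at 3 weeks in the separate lists. Hnrnph2 and Hnrnpf, related heterogeneous nuclear ribonucleoproteins, had 0.86 and 2.87 and 0.93 and 2.99 in the comparison table. Mbnl1, a regulator of developmental splicing, had 1.98 and 2.74. All 3 were lower at 5 weeks, 2 of them by at least 2-fold, where 61.9% of all genes with a 5′ UTR peak in that table were.

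Of housekeeping lists, the proteasome had 5 of 26 and 4 of 24 genes with a 5′ UTR peak, and Psmc1, an ATPase of its base, had 2.16 at 5 weeks and 4.72 at 3 weeks. Oxidative phosphorylation had 8 of 60 and 6 of 51, with Ndufv3 at 3.74 and 5.45 and Ndufb11 at 2.86 and 5.18, both subunits of complex I. For Ndufb11 no overlapping peak was listed at 3 weeks. Heat shock proteins and chaperones had 5 of 41 and 7 of 38, with Hspa12a at 1.33 and 3.49 and Hspb8 at 1.57 and 4.26. For Hspb8 the separate lists gave 2.27 and 2.61, a much smaller difference. Jun, an immediate early gene, had 2.64 and 3.42. Pituitary hormone genes and choroid plexus markers had no 5′ UTR peak at either age.

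The labelled tissue was compared with its markers by the presence of any peak, since the tables hold no expression level. Peaks were listed for 22 of 28 arcuate markers at 5 weeks and for 11 of 28 at 3 weeks, with none at either age for Agrp, Ghrh, Kiss1, Slc6a3 and Esr1, and none at 3 weeks for Pomc. Of 6 pituitary hormone genes, 0 and 1 had a peak, and of 7 choroid plexus markers 4 at each age, with none for Ttr. Oligodendrocyte genes had peaks in 16 and 17 of 18. A gene without a peak may be unmethylated or not expressed. Depth per library is unknown because the tables hold no read counts, and the part of cell composition in the differences between the ages was not tested.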

How the data were processed

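MeRIP-seq of the ARC was processed by the authors, who pooled 3 rats per age and made 1 IP and 1 input library from each pool. Their methods name Cutadapt for trimming, and the submitters' processing notes name fastp 0.19.4 and HISAT2 2.0.4. These notes also name a human build, although the deposited gene IDs and chromosomes are rat, so the sources used here leave the build of the coordinates not given, as they do the peak caller, its scaling and the annotation. Ages were read from the labels ARC_352 and ARC_212 with the study's methods.

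The deposited values are log2 enrichment of IP over input, made by the authors' caller for each age and again for the comparison. The p-values and adjusted p-values are the authors' deposited ones. Columns of their own comparison (log2 fold change, p, direction and significance) were not printed as results. The fold change was computed as the 5-week minus the 3-week log2 value of each row, and p served to order peaks and as an alternative threshold. All deposited rows have p under 0.05. The listed starts count from 0, since 759 plus-strand peaks at 5 weeks begin 1 base before their gene and 416 minus-strand peaks end at the gene's last base, so 1 was added.

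Peaks were overlapped on the same strand with bedtools 2.31.1, at least 1 base, taking the partner with the most bases in common. Shares have 95% Wilson intervals and medians order-statistic intervals, computed in Python 3.11.15 (scipy 1.17.1, pandas 2.3.3, numpy 2.4.6) and drawn in matplotlib 3.10.9. The pairing and the intervals were tested on simulated data. With 1 library of each kind per age no test was run. Depth is unknown.

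Genes were named by rule: the 8 peaks of lowest p weaker and the 8 stronger at 5 weeks, the 6 at each age (ties at p of 0 by enrichment), up to 3 members per list in the comparison table, the study's own genes, the 4 genes with the most peaks at each age, and 6 genes with opposite ends. Genes with a clone or LOC identifier were counted but not named. Other members named, such as Eif5b, Denr, Ythdf1, Alkbh5, Pcif1, Map2k1, Grb2, Chrm3, Grin3a, Tuba1a, Brd2, Srsf6, Nhlh2, Erbb4, Nrg1, Mag and Olig2, were chosen after their values were seen. The members and the 18 gene lists were chosen with earlier results of these data known. Alternatives covered p, fold, centring, overlap, the value per gene and the source of the change. Some genes that the rule selects are not reported here.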

Additional observations from a re-analysis of the deposited data

How the results depend on the processing

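Of 48 alternative values, 21 stayed within the interval or within 1.5 times the count of the value reported, 26 moved further and 1 changed sign. Alternatives that use the separate lists in place of the comparison table, or only peaks at the gene start, were chosen after seeing the data. Values are given for 5 weeks and then 3 weeks. With start codon peaks added there were 5071 and 4919 peaks, 15.3% and 16.6%. Counting genes gave 12.6% and 13.2%. With adjusted p under 0.001 the shares were 7.14% and 7.61%, the median log2 enrichments 2.90 and 3.17, and the overlapped shares 69.6% and 71.3%. With 1 peak per gene the medians were 2.92 and 3.23, and for peaks at the gene start 2.96 and 3.30. A reciprocal overlap of 50% gave 43.7% and 44.8%, and a partner also in the 5′ UTR 56.7% and 59.0%. In the comparison table, centring on all deposited peaks left 261 weaker peaks, and adjusted p under 0.05 left 77 stronger ones. By the values of the separate lists, 198 were weaker and 41 stronger of 505, with a median of -0.79. None of these counts was made over all peaks as well, so they give no contrast with peaks in general. The difference between the 5′ UTR and the 3′ end of the same gene changed sign to 0.14 over peaks paired between the lists, and was -0.035 for the genes of the comparison table. The cause was not tested. No replicate could be left out and no paired analysis was possible because each age has 1 IP and 1 input library. The alternatives for the start base were not run, since too few genes matched. Depth limits cannot be set without counts.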

Other observations

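Shares for gene families, taken by the start of the symbol and chosen after their values were seen, are given as a description, with no test of a difference. Zinc finger genes named Zfp had one in 50 of 272 genes with a peak at 5 weeks (18.4%) and 52 of 270 at 3 weeks (19.3%), where all genes gave 12.6% and 13.2%. Sox genes, developmental transcription factors, had one in 5 of 17 (29.4%) and 5 of 18 (27.8%), and Fox genes in 6 of 28 (21.4%) and 6 of 27 (22.2%). Ribosomal Rpl genes had 3 of 57 (5.26%) and 2 of 43 (4.65%), and ribosomal Rps genes 6 of 38 (15.8%) and 5 of 33 (15.2%). Tmem genes stood at 13.5% and 13.2% and Slc genes at 14.0% and 9.96%. Potassium channel genes named Kcn had one in 12 of 71 and 15 of 69, and in the comparison table all 8 with a 5′ UTR peak were at least 2-fold weaker at 5 weeks, where 61.9% of all genes with such a peak were.

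Peg3 and Usp29, neighbouring imprinted genes on opposite strands, each had a 5′ UTR peak at both ages. Peg3 had log2 values of 3.66 (5 weeks) and 3.98 (3 weeks) in a peak that begins at chr1:67097904, and Usp29 4.83 and 5.33 in one at chr1:67097103-67097677. Snrpn, a further imprinted gene, had 2.98 and 3.28 at its gene start. Twnk, the mitochondrial DNA helicase, had 5.22 and 6.75, and Ube2m, which conjugates NEDD8, 6.36 and 6.96. These 5 genes were chosen after their values were seen, so that all 5 were lower at 5 weeks is no result about them. Of all 5′ UTR peaks paired between the separate lists, 66.9% were lower at 5 weeks.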
